A study of Mus musculus with 6 samples.

Results

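The genes of alternative macrophage activation are those that mouse macrophages switch on when they receive the type 2 cytokines IL-4 and IL-13. A set of 9 such genes was followed in splenic red pulp macrophages, which clear old red blood cells and return the iron: Arg1, Retnla, Chil3, Pdcd1lg2, Mgl2, Egr2, Tgm2, Aldh1a2 and Il4ra. Every probe whose RefSeq accession maps to one of these symbols was kept, which gave 11 probes of 55681 on the array, for 9 of the 20014 genes that could be named. Tgm2 and Il4ra had 2 probes each and the other genes 1.

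Red pulp macrophages had been sorted by flow cytometry from spleens of C57BL/6 mice aged 8 to 9 weeks. The groups were 3 Bach2 knockout mice and 3 wild-type mice, 1 single-colour array per mouse. Bach2 is a transcriptional repressor that pairs with small Maf proteins on DNA. The knockout mice and wild-type replicates 1 and 2 were male, and wild-type replicate 3 was female. The labels do not say in which cells Bach2 was deleted, so the macrophages' own loss of Bach2 and its loss elsewhere in the mouse cannot be told apart.

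IL-4 and IL-13 bind receptors that contain the IL-4 receptor alpha chain, encoded by Il4ra, and activate the transcription factor STAT6. Targets in macrophages include Arg1 (arginase, which turns arginine into ornithine and urea), Retnla (the secreted protein RELM alpha), Chil3 (the secreted chitinase-like protein Ym1), the C-type lectin Mgl2, the PD-1 ligand Pdcd1lg2, the crosslinking enzyme Tgm2 and the transcription factor Egr2. Aldh1a2 encodes a retinaldehyde dehydrogenase that makes retinoic acid, and is known from IL-4-treated monocyte-derived macrophages and from subsets of dendritic cells and cavity macrophages.

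Promoters of 4 members are shown because they cover the different patterns on the arrays: Retnla and Aldh1a2, well above background on knockout arrays only, Pdcd1lg2, of intermediate level, and Chil3, well above background on all arrays. The RefSeq promoter table held 7 of the 9 members, all but Arg1 and Tgm2, in 11 windows of 300 bases from 250 before to 50 after a gene start. Both strands were searched for TTC, any 4 bases and GAA, the form bound by STAT6, for the AP-1 core TGAGTCA, and for TGCTGAG, one arm of a Maf recognition element, whose letters can overlap the AP-1 core. The 250 bases before the start follow, 5′ to 3′ on the strand of the gene (build GRCm38.p6), with matches in capitals: chr16:48842359-48842608 on the plus strand for Retnla, chr19:29410669-29410918 on the plus strand for Pdcd1lg2, chr3:106167565-106167814 on the minus strand for Chil3 and chr9:71215539-71215788 on the plus strand for Aldh1a2.
Retnla: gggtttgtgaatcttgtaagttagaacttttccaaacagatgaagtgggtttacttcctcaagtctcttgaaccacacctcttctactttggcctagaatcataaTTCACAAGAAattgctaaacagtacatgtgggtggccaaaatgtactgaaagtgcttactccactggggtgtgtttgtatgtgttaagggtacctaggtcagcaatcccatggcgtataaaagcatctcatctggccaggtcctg
Pdcd1lg2: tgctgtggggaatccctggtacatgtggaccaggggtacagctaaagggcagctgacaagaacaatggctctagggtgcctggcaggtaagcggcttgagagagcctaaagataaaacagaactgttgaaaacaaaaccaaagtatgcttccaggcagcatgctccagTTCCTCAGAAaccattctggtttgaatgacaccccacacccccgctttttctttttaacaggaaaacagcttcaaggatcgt
Chil3: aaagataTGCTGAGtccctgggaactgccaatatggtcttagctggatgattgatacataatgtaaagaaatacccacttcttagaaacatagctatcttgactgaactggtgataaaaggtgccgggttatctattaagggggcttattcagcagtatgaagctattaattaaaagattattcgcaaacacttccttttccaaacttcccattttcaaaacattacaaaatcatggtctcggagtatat
Aldh1a2: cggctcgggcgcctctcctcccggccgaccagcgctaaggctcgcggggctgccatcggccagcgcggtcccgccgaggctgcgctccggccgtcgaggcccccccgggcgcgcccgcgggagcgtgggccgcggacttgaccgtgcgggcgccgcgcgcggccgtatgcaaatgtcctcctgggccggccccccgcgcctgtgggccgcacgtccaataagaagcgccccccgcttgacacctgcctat
The Retnla window holds TTCACAAGAA, which begins 145 bases before the start, and the Pdcd1lg2 window holds TTCCTCAGAA, which begins 82 bases before it. Among all 32851 windows of the same length 6.95% hold a match to that form. Chil3 has TGCTGAG, which begins 243 bases before its start, and 7.84% of all windows hold those letters. No window of a member has TGAGTCA, which 5.20% of all windows hold. The windows of Aldh1a2, Mgl2, Egr2 and Il4ra have none of these letters. The Aldh1a2 window is rich in G and C, at 78% against a median of 52.7% over all windows. A match describes the letters and does not show binding.

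Levels below are log2 of the processed signal minus the 75th percentile of the probes on that array, so that 0 is the brightness at that percentile. That percentile lay between 1032.6 and 2664.2 on knockout arrays and between 763.9 and 1527.0 on wild-type arrays, highest on knockout replicate 3 and lowest on wild-type replicate 3. The share of spots well above background was 38.9% to 46.2% in knockout and 37.5% to 51.5% in wild type. All arrays lay on 1 slide, scanned at 1 time, with all knockout arrays in row 2 and all wild-type arrays in row 1. The effect of row cannot be told apart from that of genotype. Each of 3 columns paired a knockout with a wild-type array. The brighter Bach2 probe read -2.24, -3.72 and -1.15 in knockout and -0.90, 0.02 and -1.35 in wild type (log2 difference -1.62 ± 0.77, SE, limma adjusted p = 1), and its place relative to the deleted part is not given in the sources used here, so it checks no label. Of a list of 22 red pulp macrophage genes 21 had a probe, all 21 well above background on at least 3 arrays, and 20 of the 21 lay below 0 in the difference knockout minus wild type, with a median of -0.46, which was -0.042 with quantile normalization. In bulk RNA, fewer cells of a type and less RNA per cell cannot be told apart. With 3 arrays a genotype, all differences are imprecise.

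None of the 11 member probes passed the test between the genotypes, which was limma over all probes with Benjamini-Hochberg adjustment at an adjusted p of 0.05. The same fit called 0 of 55681 probes higher (0%) and 0 lower (0%), with 528 at an unadjusted p under 0.05 (0.948%), 0.524% higher and 0.424% lower. Of the members, 2 were on the higher side at that level, Retnla and Aldh1a2, and 0 were on the lower. The members fell into 3 patterns. Chil3, Mgl2, Tgm2, Egr2, Pdcd1lg2 and Il4ra, with 8 probes, were well above background on all 6 arrays, as were 31.2% of all probes, and their genotypes overlapped. Aldh1a2 and Retnla were well above background on knockout arrays only. Arg1 was well above background on none of the arrays, as held for 42% of all probes. Over the brighter probe of each gene, 5 members lay above 0, as did 56.6% of all probes, and 4 below, with a median log2 difference of 0.33, beside 0.045 over the 20014 named genes and 0.099 over all probes without a missing value.

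**Figure D1:**
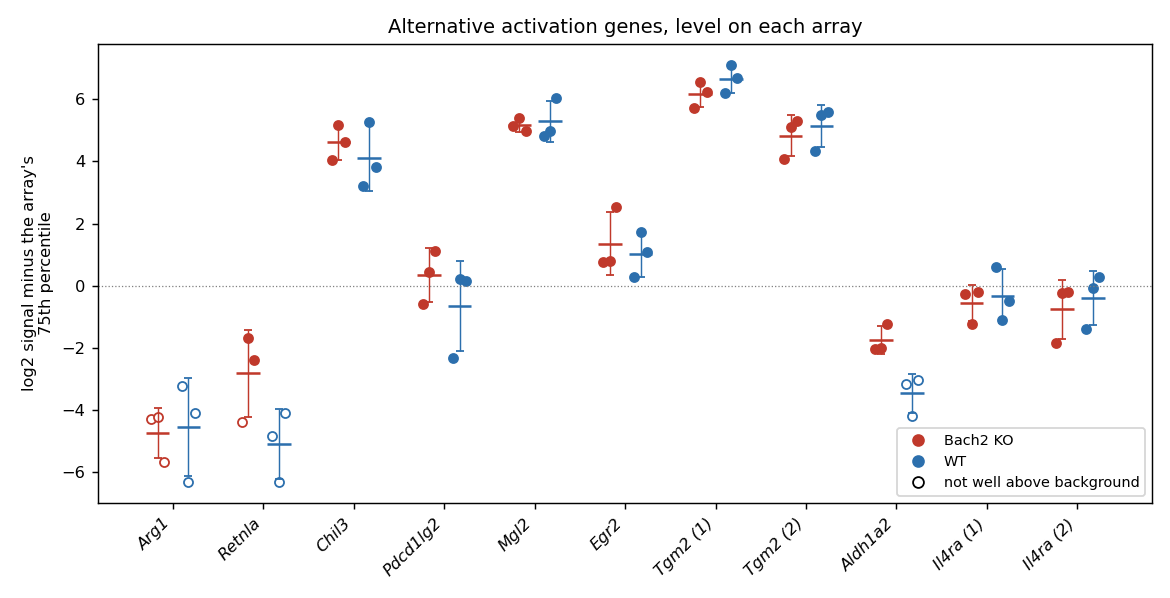
Level of each member probe on each array, in log2 units relative to the 75th percentile of that array, with Bach2 knockout in red left of wild type in blue; lines are means with SD over 3 mice, and open circles mark arrays where the probe was not well above background. Aldh1a2 is the member whose genotypes do not overlap, Arg1 is open on all arrays, and Retnla is filled on knockout replicates 2 and 3.

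Aldh1a2 was the 1 member with no overlap between the genotypes, which 2.54% of all probes showed (0.693% higher in knockout, 1.85% lower). Its level was -2.03, -2.003 and -1.24 in knockout replicates 1 to 3, and -3.16, -4.18 and -3.05 in the wild-type replicates. Before scaling, the processed signal was 335.2, 257.6 and 1127.4 in knockout and 170.9, 79.3 and 92.2 in wild type, so the order of the genotypes did not come from the scaling. It was well above background on 3 of 3 knockout arrays and on 0 of 3 wild-type arrays, a pattern that 21 of 55681 probes shared (0.0377%), while 49 probes had the opposite one (0.088%). On knockout replicates 1 and 2 it lay near the lowest level well above background on those arrays, -2.37 and -2.32. The means were -1.76 ± 0.45 in knockout and -3.46 ± 0.62 in wild type (SD, n = 3 each), a log2 difference of 1.71 ± 0.65 (SE, 95% interval 0.30 to 3.11) with an unadjusted limma p of 0.0215 and a limma adjusted p of 1. An unadjusted p under 0.05 on the higher side was seen for 0.524% of probes. Because wild type was not well above background, a floor-limited fold is given. It is the knockout mean over a wild-type mean in which each array counts at a set level. That is the array's lowest level well above background, or the reading of the probe where that is higher, as on wild-type replicate 2. For Aldh1a2 this fold was 2.47. It leaves out the spread between mice and is no lower limit, since the 95% interval starts at a log2 difference of 0.30. With normexp background correction of the spot medians the log2 difference was 1.01.

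Retnla differed between mice of the knockout group. Its level was -4.38, -1.69 and -2.39 in knockout replicates 1 to 3 and -4.84, -6.33 and -4.11 in wild type. Knockout replicates 2 and 3 lay above all wild-type arrays, whereas knockout replicate 1 lay among them. The processed signals were 65.9, 319.0 and 508.1 in knockout and 53.5, 17.9 and 44.3 in wild type, in another order than the levels. Before scaling, knockout replicate 1 was above all wild-type arrays, and knockout replicate 3 was above knockout replicate 2. Wild-type replicate 1 was then above wild-type replicate 3. Retnla was well above background on 2 of 3 knockout and 0 of 3 wild-type arrays, as were 148 probes (0.266%), against 759 with the opposite pattern (1.36%). The log2 difference was 2.27 ± 0.84 (SE, 95% interval 0.44 to 4.10), with an unadjusted limma p of 0.0190 and a limma adjusted p of 1. The floor-limited fold was 1.23. The fitted difference rests on wild-type levels that lie at background and is no measure of the fold.

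Arg1, the arginase gene that is a usual mouse marker of this state, was well above background on 0 of 6 arrays. It read -4.30, -4.24 and -5.67 in knockout and -3.23, -6.31 and -4.11 in wild type, readings at background that have no order. No fold is therefore given. Arg2, the gene of the other arginase, was well above background on 0 of 3 knockout arrays and on 1 of 3 wild-type arrays, replicate 2, where it read -1.81. Nos2, the nitric oxide synthase that competes for the same substrate, was well above background on all 6 arrays and read -0.44, -1.15 and -2.64 in knockout and -0.20, -1.56 and -0.42 in wild type, with overlap (log2 difference -0.68 ± 0.74, SE, limma adjusted p = 1).

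Chil3 was well above background in both genotypes, between 4.05 and 5.16 in knockout and between 3.20 and 5.29 in wild type. Its level was 4.05, 5.16 and 4.63 in knockout replicates 1 to 3, and 3.20, 5.29 and 3.84 in wild-type replicates 1 to 3. The highest of all 6 arrays was wild-type replicate 2, and the lowest wild-type replicate 1, so that the wild-type range of 2.09 took in all knockout values. The log2 difference was 0.50 ± 0.72 (SE, 95% interval -1.05 to 2.06, limma adjusted p = 1). Chil4, a near-identical paralogue whose transcript the Chil3 probe could also bind, read -0.30, -1.17 and 0.53 in knockout and 0.37, -2.01 and -1.52 in wild type on its own probe. Its genotypes overlapped too (log2 difference 0.74 ± 0.78, SE, limma adjusted p = 1). Chil3 also marks inflammatory monocytes, a list of 12 genes in which it is included. Of the 11 genes of that list with a probe, 4 lay above 0 and 7 below, with a median log2 difference of -0.16. The score of that list, its mean after centring each gene on the 6 arrays, ran from -0.69 to 0.37 in knockout and from -0.51 to 0.74 in wild type. It was highest on wild-type replicate 2, where Chil3, which is part of the score, was highest. The dendritic cell score, which does not hold Chil3, was highest there too, at 0.65. The part of other cells in the Chil3 level was not tested.

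Mgl2, the lectin CD301b of macrophages and dendritic cells, gave the smallest difference among the members. Its level was 5.13, 5.40 and 4.98 in knockout and 4.82, 4.99 and 6.06 in wild type, where the female mouse, replicate 3, was the highest of all arrays. The knockout SD was 0.21 and the wild-type SD 0.67 (n = 3 each). The log2 difference was -0.12 ± 0.64 (SE, 95% interval -1.51 to 1.27, limma adjusted p = 1), and its direction changed with quantile normalization, with median centring, without wild-type replicate 3 and without the 2 mice that share the tag P6. Clec10a, its closest paralogue, differed by -0.069 on the log2 scale, knockout minus wild type (limma adjusted p = 1). Mrc1, the mannose receptor that is widely used as a marker of alternative activation, read 5.41, 5.21 and 6.36 in knockout and 5.09, 5.79 and 6.30 in wild type.

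Tgm2, which encodes a protein-crosslinking transglutaminase, lay on the lower side in knockout by both of its probes, without passing the test. The brighter probe read 5.74, 6.57 and 6.25 in knockout and 6.21, 7.10 and 6.69 in wild type. The other probe read 4.08, 5.12 and 5.30 in knockout and 4.35, 5.49 and 5.59 in wild type. For both probes the lowest array was knockout replicate 1, and the genotypes overlapped. The log2 differences were -0.48 ± 0.63 and -0.31 ± 0.67 (SE, limma adjusted p = 1 for both). Within array columns 1, 2 and 3, where 1 mouse of each genotype is set against the other, the brighter probe differed by -0.48, -0.53 and -0.44, and the other by -0.27, -0.37 and -0.30. With array column as a block the adjusted p remained 1 for both.

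Il4ra encodes the receptor chain through which IL-4 and IL-13 act. One probe read -0.28, -1.23 and -0.19 in knockout and 0.60, -1.10 and -0.48 in wild type, and the other read -1.86, -0.23 and -0.21 in knockout and -1.40, -0.08 and 0.28 in wild type. The probes share an accession but did not rank the mice alike: wild-type replicate 1 was the highest array for one probe and the second lowest for the other. The log2 differences were -0.24 ± 0.69 and -0.37 ± 0.73 (SE, limma adjusted p = 1 for both), in the same direction, and all groups overlapped.

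Egr2, a zinc finger factor that is induced by IL-4 in macrophages and by antigen receptors in lymphocytes, read 0.76, 0.79 and 2.53 in knockout and 0.27, 1.74 and 1.07 in wild type. Knockout replicate 3 stood apart from the other 2 knockout arrays, and without it the log2 difference of 0.33 ± 0.73 (SE, limma adjusted p = 1) became -0.25. Without wild-type replicate 1 it was -0.05. Pdcd1lg2 encodes PD-L2, a ligand of PD-1 on macrophages and dendritic cells. It read -0.59, 0.45 and 1.13 in knockout and -2.32, 0.20 and 0.15 in wild type, with a log2 difference of 0.99 ± 0.81 (SE, 95% interval -0.79 to 2.76, limma adjusted p = 1). Wild-type replicate 1 was far below the other arrays, and without it the difference was 0.15. Cd274, which encodes the other PD-1 ligand, read 2.23, 2.70 and 3.90 in knockout and 1.69, 3.17 and 2.85 in wild type.

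**Figure D2:**
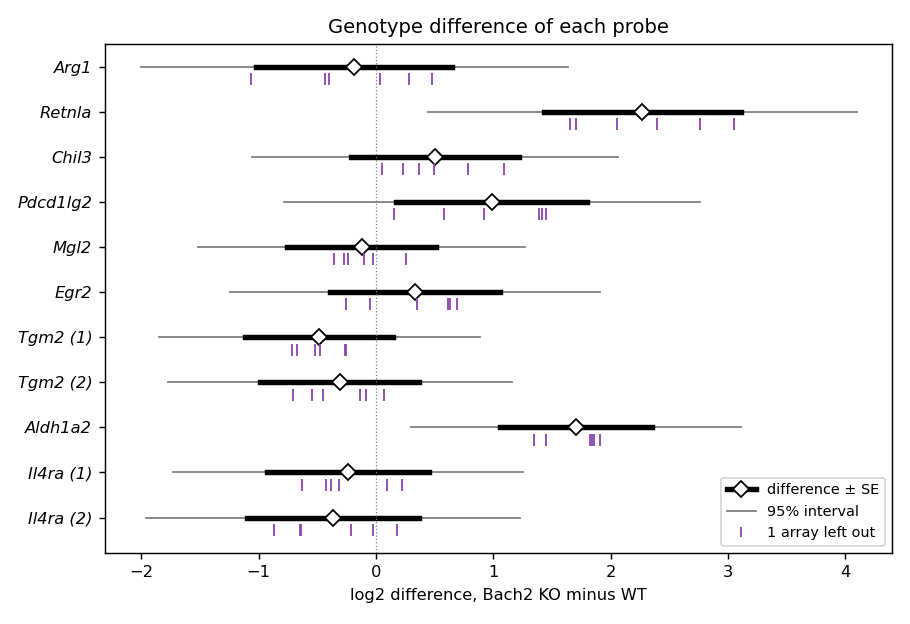
Log2 difference of each member probe, Bach2 knockout minus wild type, with the SE as a thick bar, the 95% interval as a thin bar and the values after leaving out each array in turn as ticks. The intervals of Retnla (0.44 to 4.10) and Aldh1a2 (0.30 to 3.11) lie above 0, without adjustment for the number of probes, and those of the other probes include 0.

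Comparing the arrays column by column gave a same-signed difference in all 3 columns for 6 of the 11 probes. Retnla differed by 0.46, 4.63 and 1.72, Aldh1a2 by 1.13, 2.18 and 1.81 and Pdcd1lg2 by 1.73, 0.24 and 0.98, knockout minus wild type, in columns 1 to 3. In column 1 Retnla was well above background on neither array, so its sign there is a comparison of background readings. Background itself differed between the arrays of a column: Il13, well above background on no array, differed by 0.47, 2.03 and -1.56. Among all probes 5.6% were higher in knockout in all 3 columns and 8.42% lower. Both Tgm2 probes and one Il4ra probe, with -0.46, -0.15 and -0.49, were on the lower side in each column. Chil3, Mgl2, Egr2, Arg1 and the other Il4ra probe changed sign between columns. With array column as a block in limma no member passed (adjusted p = 1 for each), and Aldh1a2 had an unadjusted p of 0.0291 and Retnla of 0.0492.

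**Figure D3:**
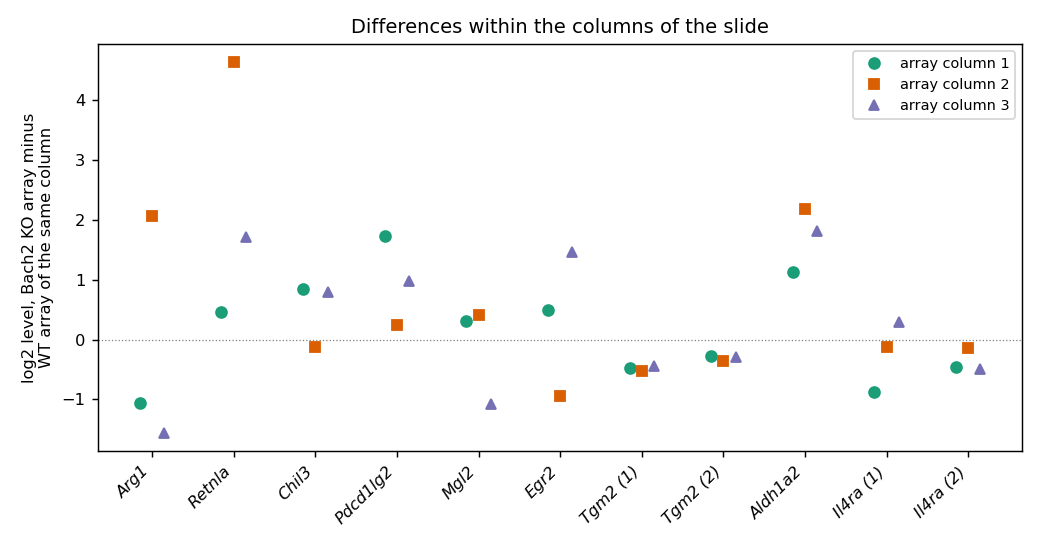
Difference in log2 level between the Bach2 knockout array and the wild-type array of the same slide column, for each member probe. Both Tgm2 probes lie between -0.53 and -0.27 in all columns, Aldh1a2 between 1.13 and 2.18, and Mgl2, Egr2 and Arg1 on both sides of 0.

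The genes that carry the signal to these targets were also read. Of 21 genes of IL-4 and IL-13 receptor signalling, 0 passed in either direction, 9 lay above 0 and 12 below, and the median log2 difference was -0.041. Stat6, the factor that the receptor activates, read 1.95, 2.23 and 3.60 in knockout and 2.51, 3.41 and 3.42 in wild type on its brightest probe. Il2rg, the shared gamma chain, read 2.76, 2.88 and 3.18 in knockout and 2.46, 3.07 and 3.74 in wild type. Il13ra1, the partner chain in the receptor for IL-13, read -1.73, -3.17 and -0.62 in knockout and -1.86, -0.89 and -0.68 in wild type. Named by the highest readings, Ptpn6 (the phosphatase SHP-1), the kinase Jak1 and the kinase Akt1 differed by -0.17 ± 0.67, 0.03 ± 0.61 and -0.33 ± 0.65 (SE). Socs1, an inhibitor of JAK kinases, had the smallest p of the list, with a log2 difference of 0.75 ± 0.68 (SE, limma adjusted p = 1). Of the cytokines themselves, Il13 was well above background on 0 of 6 arrays. Il4 was well above background on 2 of 3 knockout and 3 of 3 wild-type arrays, at -1.88, -3.25 and -0.82 in knockout and -1.86, -1.90 and -0.83 in wild type.

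Other genes that IL-4 induces in mouse macrophages gave differences on both sides of 0. Of 39 genes 37 had a probe, 20 above 0 and 17 below, 0 passed, and the median log2 difference was 0.059. The ribonuclease genes Ear2 and Rnase2a and the cyclooxygenase gene Ptgs1, named by the highest readings, differed by -0.46 ± 0.64, -0.34 ± 0.66 and -0.12 ± 0.62 (SE). The smallest p belonged to Ccl8, a chemokine of tissue macrophages, which like Retnla was well above background on knockout replicates 2 and 3 and on no wild-type array. Ccl8 read -4.43, -1.98 and -1.54 in knockout and -4.89, -5.33 and -4.18 in wild type. Its floor-limited fold, knockout over wild type, was 1.39, with an unadjusted limma p of 0.0207 and a limma adjusted p of 1. Of 20 transcription factors of alternative activation 0 passed, 15 lay below 0 and 5 above, with a median of -0.16. The interferon regulatory factor Irf8 and the oxysterol receptor Nr1h3 differed by -0.32 ± 0.62 and -0.49 ± 0.62 (SE). Pparg, the lipid-sensing nuclear receptor, read 4.42, 4.76 and 5.14 in knockout and 4.21, 5.47 and 4.84 in wild type. Irf4 and Klf4, which act with STAT6, differed by 0.17 ± 0.65 and 0.27 ± 0.80 (SE).

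The lists next to single members gave no call either. In arginine and polyamine metabolism 9 of 21 genes with a probe lay above 0 and 12 below (median -0.093), and Odc1, which takes ornithine into polyamines, its antizyme Oaz1 and Sat1, which acetylates polyamines, differed by 0.29 ± 0.89, -0.32 ± 0.64 and -0.25 ± 0.63 (SE). In retinoic acid synthesis and response, the pathway of Aldh1a2, 13 of 22 genes lay above 0 and 9 below (median 0.29). That median turned to -0.22 with the filter on dim probes and to -0.11 without wild-type replicate 2. The retinoid X receptors Rxrb and Rxrg and the reductase Dhrs3 differed by -0.54 ± 0.62, 0.29 ± 0.67 and -0.40 ± 0.64 (SE). Rxrb was 1 of 2 genes of the 22 that were lower in knockout without overlap, beside 1.85% of all probes. Retinaldehyde dehydrogenases of this list were Aldh1a1, at 3.86, 3.87 and 2.03 in knockout and 4.36, 0.83 and 2.38 in wild type, and Aldh1a3, not well above background on any array. Dhrs9, a dehydrogenase that can act on retinol, had the smallest p of this list and was well above background on knockout replicate 3 alone, where it read 1.05. In the list of other transglutaminases and factor XIII 3 of 8 genes lay above 0 and 5 below (median -0.28, but 0.17 without both mice tagged P6 and -0.73 with the filter), Tgm1 and Tgm3 differed by -0.73 ± 0.67 and 0.11 ± 0.74 (SE), and F13a1 read -2.24, 0.01 and 0.79 in knockout and 0.38, 2.73 and 0.36 in wild type. In the PD-1 pathway and B7 family 7 of 12 genes lay above 0 and 5 below (median 0.25), and Pdcd1 itself differed by 0.90 ± 0.89 (SE). In that list Cd86, Icos, Havcr2 and Cd28 differed by -0.36 ± 0.63, -0.05 ± 0.67, -0.14 ± 0.66 and 1.24 ± 0.68 (SE). For comparison, of 23 genes of classical activation 13 lay above 0 and 10 below (median 0.035), Irf1 and Ccl5 differed by -0.04 ± 0.65 and 0.66 ± 0.69 (SE), with Il6 of the smallest p and well above background on 1 knockout array only. The limma adjusted p was 1 for every gene named from these lists.

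**Figure D4:**
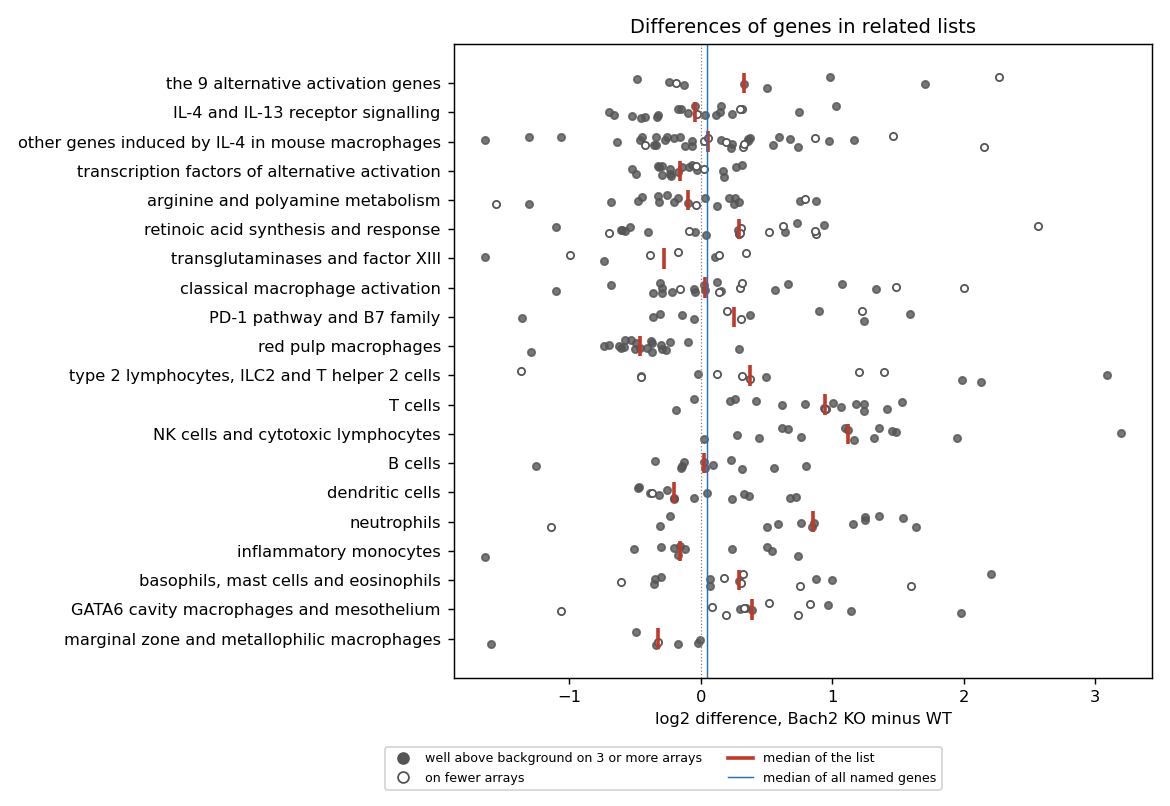
Log2 difference, Bach2 knockout minus wild type, of the brightest probe of each gene in the 9 alternative activation genes, 9 gene lists and 10 marker lists; filled circles were well above background on 3 or more arrays, red bars are list medians and the blue line is the median of all named genes at 0.045. The medians of the T cell list (0.95) and the NK cell list (1.12) lie farthest above that line and the red pulp macrophage list (-0.46, but -0.042 with quantile normalization) farthest below.

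Several members are also made by cells other than macrophages, so marker lists of such cells were read. No marker passed the test (limma adjusted p = 1 for each), and the scores of the T cell, NK cell and marginal zone lists did not overlap between the genotypes, while those of the other lists did. The T cell list, with 15 of 17 genes above 0, had a score of 0.22 to 0.69 in knockout and -0.45 to -0.33 in wild type. The NK list, with 15 of 15 above 0, had one of -0.00069 to 1.26 in knockout and -1.02 to -0.25 in wild type. Of the type 2 lymphocyte list 9 of 13 genes lay above 0, with a median of 0.38. That median was 0.90 without wild-type replicate 1 and ran from 0.014 to 1.25 over the alternatives listed below. Of the 13 genes 1 was well above background on all 6 arrays and 3 on none. The score overlapped, at 0.081 to 0.54 in knockout and -1.12 to 0.097 in wild type. In it Gata3 read -1.23, -1.01 and -0.92 in knockout and -2.22, -5.09 and -2.23 in wild type, without overlap, and Klrg1 read 1.76, 2.22 and 1.73 in knockout and 1.43, -4.61 and -0.38 in wild type, also without overlap (limma adjusted p = 1 for both). These were 2 of the 13 genes, beside 0.693% of all probes on that side, and the other 11 overlapped. Gata3 was not well above background on wild-type replicates 2 and 3, nor Klrg1 on wild-type replicate 2, so those readings lie at background. Ptgdr2, Il5, Il4 and Ccr8 lay below 0, with log2 differences of -1.37, -0.45, -0.45 and -0.02. The neutrophil score ran from -0.54 to 1.53 in knockout and from -1.15 to 0.57 in wild type, with 11 of 14 genes above 0. That of basophils, mast cells and eosinophils ran from -0.21 to 0.99 in knockout and from -0.72 to 0.19 in wild type, with 11 of 15 above 0. Both were highest on knockout replicate 2, as were the scores of the T cell, NK cell and cavity macrophage lists. The Retnla level was highest there too, but before scaling its signal was highest on knockout replicate 3. The B cell score, -0.34 to 0.41 in knockout and -0.90 to 0.71 in wild type, overlapped between the genotypes, and that of marginal zone markers did not, at -0.35 to -0.095 in knockout and -0.014 to 0.49 in wild type. All 7 marginal zone genes lay below 0, but only 1, at -1.59, was lower without overlap, beside 1.85% of all probes. Siglec1, Ccl21a and Madcam1 differed by -0.017, -0.006 and -0.17.

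For Aldh1a2 and Pdcd1lg2, dendritic cells and cavity macrophages were read too. Of 15 dendritic cell genes with a probe 6 lay above 0 and 9 below, with a median of -0.20, and the score of -0.13 to 0.15 in knockout lay within that of -0.33 to 0.65 in wild type. Defining genes of cavity macrophages and mesothelium, Gata6, Wt1, Msln and Upk3b, were not well above background on any array. In that list 12 of the 13 genes lay above 0, but 6 of the 13 were well above background on no array and 3 on all 6. Its score, which includes those readings at background, was 0.020 to 0.56 in knockout and -0.59 to 0.22 in wild type. The part of the dendritic cell, cavity macrophage, lymphocyte and granulocyte markers in the levels of Aldh1a2 and Retnla was not tested.

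As a description of pattern, the 9778 other named genes that were well above background on all 6 arrays were ranked by Pearson's r over those arrays with each probe of the 6 members that met the same condition. Arg1, Retnla and Aldh1a2 were not ranked. With 6 arrays many genes track any profile: between 39 and 671 of them exceeded 0.9, depending on the member. The closest were Rab19, Syt11 and D16Ertd472e for Chil3, and Tmprss4, Casp4 and Klf2 for Pdcd1lg2. For Mgl2 they were Plekhj1, Pmm2 and Olfr609, and for Egr2 Cntrl, Zfp267 and Ercc6l2. Snd1 and Pik3r2 were among the closest 3 both for the dimmer Tgm2 probe and for one Il4ra probe, while the brighter Tgm2 probe lay closest to Smg9, Chtf8 and Ganab and the other Il4ra probe to Tbc1d10b, Necap2 and Pml.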

How the data were processed

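The deposited scanner files give an intensity per spot. Agilent Feature Extraction made them, as version 10.7.3.1 per the file headers, while the submitters' processing notes name version 9.1. Array totals differ, so no scaling between arrays had been applied to the processed intensity. Promoters and names came from RefSeq tables of build GRCm38.p6. The authors' deposited table of log2 values holds 279 probes and none of the members. Set against the scanner values, it matches values scaled to the 75th percentile from which every probe's own median was taken (largest difference 0.153), with column medians of -0.29, -0.23 and -0.26 in knockout and 0.32, 0.34 and 0.28 in wild type.

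Flagged spots, 141 to 283 per array, were set to missing. Spots of a probe were averaged, divided by the array's 75th percentile over the 55681 probes that are not controls, and taken to log2. RefSeq accessions named 26407 probes. The limma fit (version 3.58.1, R 4.3.3, lmFit then eBayes) took in all probes, knockout minus wild type, and adjustment was over all probes. A gene in a list is given by its brightest probe. The replicates are separate mice, numbered in the order of the records.

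The members, the 9 gene lists and 10 marker lists, the tests and the rule for named genes were chosen with earlier results of these data known. That rule named all members, in each list the genes past the threshold or else the 3 with the highest level and the 1 with the smallest p, and genes fixed by name. 1 gene that the rule names is not reported here. Clec10a and single markers of the cell type lists were added after their values were seen. The alternatives were another background correction, quantile normalization, median centring, a filter on dim probes, an intensity trend in the prior, array column as a block, leaving out each mouse, and leaving out both mice tagged P6.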

Additional observations from a re-analysis of the deposited data

How the results depend on the processing

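No member probe was called in any of the 13 alternatives that could be computed for it, and Retnla, Aldh1a2, Pdcd1lg2, Chil3 and the brighter Tgm2 probe kept their direction in each. The counts of all probes called were 1 higher and 2 lower with an intensity trend in the prior, and also 1 higher and 2 lower with normexp on the spot medians, an alternative chosen after seeing the files, which lack the spot means planned for it. These 3 probes are the same in both and carry transcript accessions that the RefSeq table does not name. The direction changed for Mgl2 with quantile normalization (0.025), with median centring (0.013) and without both mice tagged P6 (0.36), and in that last setting also for Arg1 (0.50) and Egr2 (-0.23). Leaving out each mouse moved Arg1 between -1.06 and 0.47, Mgl2 between -0.36 and 0.26, Egr2 between -0.25 and 0.69, the dimmer Tgm2 probe between -0.71 and 0.067, and the Il4ra probes between -0.63 and 0.23 and between -0.87 and 0.18, all with changes of direction. It moved Retnla between 1.65 and 3.05, Aldh1a2 between 1.35 and 1.91, Pdcd1lg2 between 0.15 and 1.45 (lowest without wild-type replicate 1) and Chil3 between 0.051 and 1.09 (also lowest without it). The median over the members ranged from 0.15 to 0.69, highest without wild-type replicate 2, and the number of probes called stayed at 0. The cause was not tested. The median of all probes was 0.10, and was 0.24 with median centring, -0.074 with normexp, 0.0026 with quantile normalization and -0.11 with the filter on dim probes, under which Arg1 and Retnla were not tested. Of 108 list medians under alternatives 12 moved by more than the spread between mice, and of 120 marker list medians 9 did. The median turned direction under at least 1 alternative for 11 of 19 lists, among them all gene lists but that of red pulp macrophages, and for 8 it did not. No paired analysis by animal was possible, because the labels share only 1 animal tag between the genotypes. Array column, which sets a knockout beside a wild-type array by position on the slide, was used as a block and changed no call. The column number equals the replicate number in both genotypes, so that block also pairs the replicates by number. The slide could not be a block, since all arrays lay on it. For Arg1, Retnla and Aldh1a2 the signal over background limits what can be compared.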
